A study of Mus musculus with 8 samples.

Results

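Excitatory neurons 10 is 1 of the 21 cell types that the authors assigned to nuclei of mouse hippocampus, and its members are the nuclei that carry this name in the deposited annotation. It held 768 of 29425 nuclei, of which 286 and 368 came from mutant replicates 1 and 2 and 74 and 40 from control replicates 1 and 2. Single nucleus RNA sequencing (snRNAseq) was applied to 2 mutant and 2 control mice, with both hippocampi of a single male mouse in each library, and bulk RNAseq to 2 mice per genotype. Control mice were *Gfap-Cre;Wlsfl/+* and mutant mice were *Gfap-Cre;Wlsfl/-*, both adult (12 weeks old in the study's text). Both genotypes therefore carried the *Gfap-Cre* transgene and a floxed copy of *Wls*, and they differed in whether the other copy was intact or null. *Gfap-Cre* is active in progenitors of the medial and dorsal cortex by mid-gestation, so that the cells of a type in the adult need not all be recombined.

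*Wls* encodes the carrier protein that brings Wnt ligands to the cell surface, and the loss of Wnt signals from the medial cortex impairs the formation of the dentate gyrus, whose granule cells (DGCs) are the input neurons of the hippocampus. Excitatory neurons of the hippocampal formation use glutamate, which the vesicular transporter *Slc17a7* loads into synaptic vesicles, and the pyramidal cells of the CA fields, the subiculum and the adjoining cortex differ from one another in transcription factors, adhesion molecules and guidance receptors. *Dcc*, one of the genes used here to label the nuclei, encodes a receptor for the guidance molecule netrin. *Wfs1* encodes wolframin, a membrane protein of the endoplasmic reticulum that marks subsets of hippocampal and entorhinal neurons.

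The snRNAseq libraries held between 26307081 and 76486132 unique molecular identifiers (UMIs), each counting 1 captured transcript. Nuclei of excitatory neurons 10 had median UMIs of 5420.5 and 9350.5 in mutant replicates 1 and 2 and of 8077 and 12187.5 in control replicates 1 and 2, so that replicate 2 was the deeper library in each genotype. Summed over the nuclei of the type, the UMIs came to 1686159, 3607086, 659081 and 524132 in the same order, and the control sums were the smaller and the less precise. Between 8 and 21 cell barcodes were shared by a pair of libraries. Scrublet, which marks likely doublets, marked 2 nuclei of mutant replicate 1, too few to be taken as a working call, and in the other libraries it marked 25, 6 and 4 nuclei of excitatory neurons 10. In bulk RNAseq, replicate 2 of each genotype went against the male label. *Xist*, transcribed from the inactive X chromosome, reached 231 and 518 CPM (counts scaled to the same total in every library) in these mutant and control libraries, against 1.44 and 1.04 CPM in replicate 1.

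The nuclei carried the genes of their label, the glutamate transporter gene *Slc17a7* and little *Gad2*. Levels across cell types are CPM of UMIs summed over the nuclei of a sample and type. *Slc17a7* stood at 215 and 230 CPM in the mutant and 223 and 317 CPM in the control nuclei. *Gad2*, an enzyme of GABA synthesis, stood at 4.15, 8.04, 4.55 and 3.82 CPM in the same order, against 305 CPM in inhibitory neurons 5 of the controls. The summed level of the 7 inhibitory markers was 142 and 193 CPM in mutants and 98.6 and 97.3 CPM in controls, whereas it was 6183 to 7833 CPM in inhibitory neurons 5. The 8 excitatory markers summed to 1315 and 1520 CPM in mutants and 1658 and 1881 CPM in controls, below the 1901 to 2536 CPM of CA1. Of these 8, 7 had a lower fitted level in mutants and 0 were called.

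Each of the 4 label genes was higher in excitatory neurons 10 of the controls than in any other assigned type. These nuclei were clustered on their own expression, so this is a description and was not tested. *Slc26a4*, which encodes the anion exchanger pendrin, was at 168 and 179 CPM in mutants and 118 and 111 CPM in controls, against 54.4 CPM in CA3, the next type of the controls. In the mutants its next type was inhibitory neurons 15, at 83.1 and 132 CPM. The name of that type is the authors', and whether its nuclei are inhibitory was not examined here. *Cpa6*, a secreted carboxypeptidase, was at 182 and 107 CPM in mutants and 129 and 34.3 CPM in controls, against 38.6 CPM in inhibitory neurons 15. Control replicate 2 was thus below that level for *Cpa6* on its own. *Wfs1* was at 79.5 and 106 CPM in mutants and 140 and 105 CPM in controls, against 60.5 CPM in CA1. *Dcc* was the most abundant of the 4, at 3341 and 2706 CPM in mutants and 3641 and 2625 CPM in controls, against 2312 CPM in excitatory neurons 13. The label genes did not fill every nucleus: at least 2 of the 4 had a UMI in 73.4% and 80.7% of mutant nuclei and in 85.1% and 90% of control nuclei, and the deeper library of each genotype had the higher share.

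The gene with the highest enrichment was not a label gene. *Pparg*, a nuclear receptor of lipid metabolism, was at 111 and 141 CPM in mutants and 152 and 126 CPM in controls, and its control level was 2.81 times that of inhibitory neurons 5, the next type. *Cpa6*, *Slc26a4* and *Wfs1* followed with ratios of 2.25, 2.11 and 2.05. Of 3664 genes with at least 50 CPM in excitatory neurons 10 of the controls, 81 were higher there than in every other type, 5 by more than 1.5 times and 4 by more than 2 times, so the type was set apart by few genes and moderate ratios. The other genes among the 15 with the highest ratios were *Gm1604a* (1.78), *Gm11418* (1.49), *Gpr26* (1.44), which encodes an orphan G protein-coupled receptor, *Dcc* (1.38), *5530401A14Rik* (1.34), *C230057M02Rik* (1.31), *Acvr1c* (1.297), a receptor for activin-type ligands, *Csmd1* (1.295), *Ntng2* (1.29), a netrin-G adhesion protein of synapses, *Jakmip1* (1.28) and *AC161199.1* (1.28). In the mutants, 11 of these 15 genes were again above every other type, and *Gm11418*, *C230057M02Rik*, *Acvr1c* and *AC161199.1* were not.

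**Figure D1:**
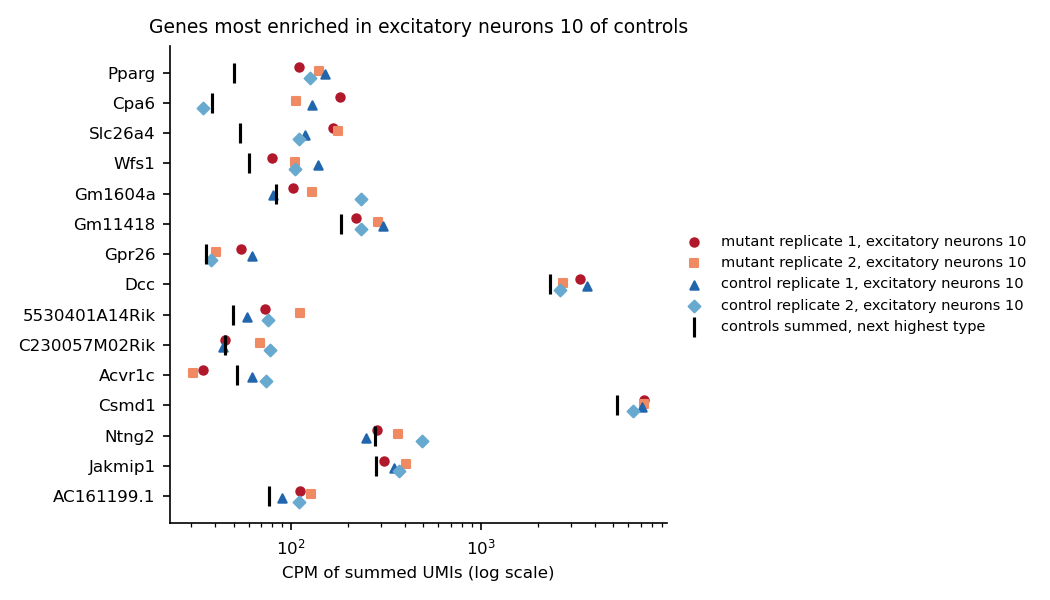
CPM of summed UMIs (log axis) for the 15 genes with the highest ratio in control nuclei, with 1 symbol per sample of excitatory neurons 10 and a vertical tick for the next highest cell type of the controls. *Pparg*, *Cpa6*, *Slc26a4* and *Wfs1* lie farthest from their ticks, and *Dcc* and *Csmd1* are the most abundant.

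The genes were also compared per nucleus at equal depth. After each nucleus was thinned to 1500 UMIs, *Pparg* had a UMI in 15.7% and 20.1% of mutant and 18.9% and 15% of control nuclei of excitatory neurons 10, against 0% to 0.75% of CA1 nuclei in the 4 samples. In excitatory neurons 7, the next type of the mutants for this gene, the shares were 9.75%, 5.68%, 7.06% and 4.10%, and in DGCs they were 1.25% to 5%. Before thinning the shares in excitatory neurons 10 were 42.0%, 62.0%, 63.5% and 80.0%. *Wfs1* had a UMI in 13.6%, 15.5%, 25.7% and 12.5% of thinned nuclei, and in CA1 it had one in 4.75% to 9.0%, so that CA1 lay below each of these values. *Slc26a4* reached 21.3%, 23.6%, 14.9% and 20.0%, against 7.0% to 9.25% in CA1 and 4.75% to 10% in DGCs. It had a UMI in at most 1.85% of nuclei in excitatory neurons 8 and at most 1.14% in excitatory neurons 13.

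The share of excitatory neurons 10 among all nuclei was higher in both mutants than in both controls. It was 5.39% (exact 95% binomial interval 4.80 to 6.03) and 3.52% (3.17 to 3.89) in mutant replicates 1 and 2, against 1.14% (0.899 to 1.43) and 0.556% (0.398 to 0.757) in control replicates 1 and 2. The intervals cover counting error only. The groups did not overlap, but the replicates differed beyond their intervals within each genotype. With the mouse as replicate, the fitted difference was 5.23-fold (log2 difference 2.39, SE 0.645, n = 2 mice per genotype, unadjusted p = 0.0192 from edgeR's quasi-likelihood test), and it did not pass the Benjamini-Hochberg adjustment over the 21 types in edgeR (adjusted p = 0.201). An exact permutation test on 2 against 2 samples cannot go below p = 0.33. With DESeq2 in place of edgeR the same log2 difference of 2.39 passed (adjusted p = 0.0034 by Benjamini-Hochberg).

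A share also moves with the rest of the sample. DGCs made up 1.70% and 4.43% of mutant nuclei and 36.1% and 27.9% of control nuclei. Without DGCs in the denominator, excitatory neurons 10 made up 5.49% and 3.68% of mutant nuclei and 1.79% and 0.771% of control nuclei. Among excitatory nuclei other than DGCs the shares were 7.45% and 6.92% against 2.96% and 1.67%, with a log2 difference of 1.63, and the groups did not overlap in either case. Excitatory neurons 8, another type without a hippocampal field in its name, took 11.0% and 3.53% of mutant nuclei and 2.50% and 1.27% of control nuclei (adjusted p = 0.276 in the Benjamini-Hochberg adjusted edgeR test). How much adjoining cortex each dissection held is not given in the labels, and its part in these shares was not tested.

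**Figure D2:**
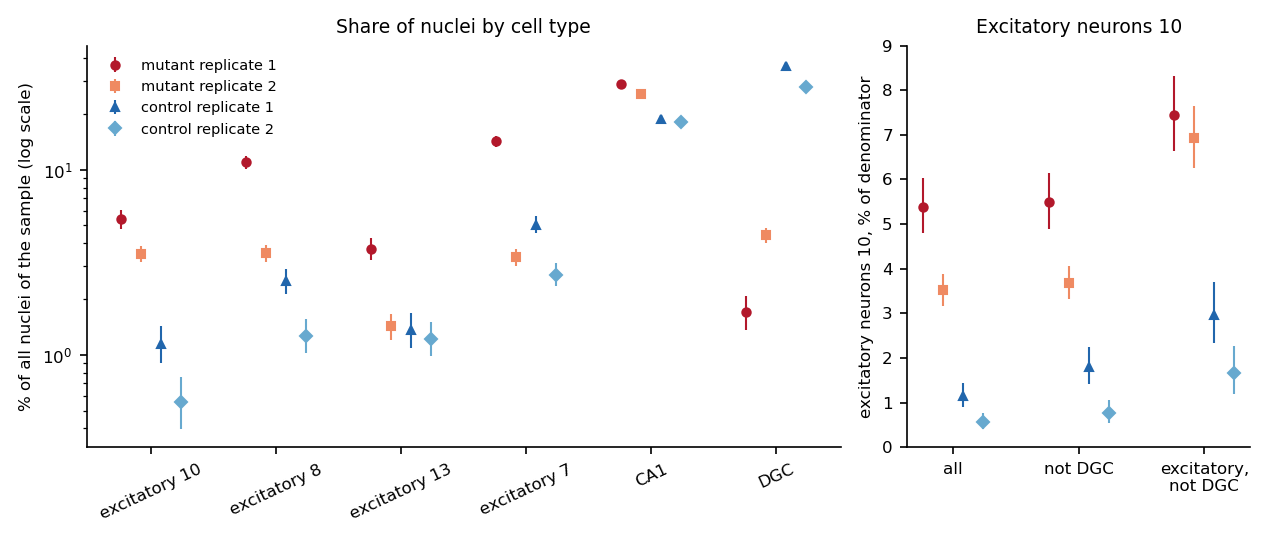
Left, percentage of all nuclei of each sample (log axis) for excitatory neurons 10 and other types, with exact 95% binomial intervals as bars. Right, excitatory neurons 10 as a percentage of all nuclei, of nuclei other than DGCs and of excitatory nuclei other than DGCs, where both mutant samples lie above both control samples at each denominator.

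To compare transcript levels between genotypes, UMIs of excitatory neurons 10 were summed per mouse and tested in edgeR, with a call at a false discovery rate (FDR) below 0.05 and a fold change (FC) above 2. Of 10365 genes tested, 5 were called higher in mutants (0.0482% of genes) and 0 lower (0%), and DESeq2 called 11 higher, these 5 among them, and 0 lower. At an unadjusted p below 0.05 with the same FC, 259 genes (2.5%) were higher and 148 (1.43%) lower. Both mutants were above both controls for 22.6% of genes and below them for 17.1%. The 5 genes encode a chromatin protein, a potassium channel, 2 sulfotransferases and a non-coding RNA. Levels in the tests are CPM after TMM scaling, and log2 differences are mutant minus control.

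*L3mbtl4*, which encodes a protein with MBT repeats of the kind that bind methylated histones (chromosome 17, 68273797 to 68780086, plus strand, GRCm38), was at 118 and 141 CPM in mutants and 13.4 and 7.33 CPM in controls. The mutants lay above the controls, with a log2 difference of 3.56 (SE 0.340, FDR = 0.0048 in the Benjamini-Hochberg adjusted edgeR test). In other excitatory types it was low, at 7.94 to 18.7 CPM in CA1 and 5.55 to 6.39 CPM in excitatory neurons 8. Both mutants were also above both controls in CA1 (18.7 and 12.7 CPM against 8.40 and 7.94 CPM) and mossy cells (21.4 and 13.9 CPM against 2.43 and 5.42 CPM). The same held in CA3, excitatory neurons 7 and DGCs. The groups overlapped in CA2 and in excitatory neurons 8 and 13, and in excitatory neurons 19 both mutants were below both controls.

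*Kcnc2*, which encodes a fast voltage-gated potassium channel of the Kv3 family (chromosome 10, 112271121 to 112467024, plus strand), was at 111 and 122 CPM in mutants and 31.3 and 18.3 CPM in controls, a log2 difference of 2.16 (SE 0.295, FDR = 0.0306 in the Benjamini-Hochberg adjusted edgeR test). In inhibitory neurons 5 *Kcnc2* was at 1354 to 1993 CPM. Among excitatory types, *Kcnc2* was at 222 to 300 CPM in CA1, 499 to 605 CPM in CA3 and 67.3 to 80.1 CPM in excitatory neurons 8. It was the only one called of the 27 potassium channel genes tested. The median log2 difference of these 27 was 0.04, and 14 were higher and 13 lower in mutants.

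*Hs3st4*, which adds sulfate to heparan sulfate chains (chromosome 7, 123982869 to 124398989, plus strand), was at 136 and 168 CPM in mutants and 35.8 and 42.1 CPM in controls. Its log2 difference was 1.93 (SE 0.262), and *Chst9*, which sulfates N-acetylgalactosamine of glycoproteins, was at 72.8 and 79.5 CPM against 7.46 and 14.7 CPM, with a log2 difference of 2.78 (SE 0.354). Their FDRs were 0.0306 and 0.0268 in the Benjamini-Hochberg adjusted edgeR test. The summed levels of both did not overlap between genotypes. The share of nuclei with a UMI of *Hs3st4* did overlap at 1500 UMIs per nucleus, at 8.74% and 11.1% in mutants and 9.46% and 5% in controls, whereas that of *Chst9* was 6.99% and 8.696% against 1.35% and 2.5%.

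The last of the 5, *Gm15261*, is annotated as an antisense RNA (chromosome X, 169037674 to 169106536, minus strand) within *Arhgap6*, a gene on the opposite strand (168795099 to 169304435). It was at 75.8 and 58.0 CPM in mutants and 5.97 and 9.16 CPM in controls, a log2 difference of 3.11 (SE 0.396, FDR = 0.0268 in the Benjamini-Hochberg adjusted edgeR test). *Arhgap6* was at 99.5 and 93.6 CPM in mutants and 34.3 and 3.66 CPM in controls and did not pass (log2 difference 2.21, FDR = 0.207 in the Benjamini-Hochberg adjusted edgeR test). Whether the counting used strand is not given in the sources used here, and reads of the pair may not be told apart.

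The control levels of these genes rested on few nuclei. In control replicates 1 and 2, 7 and 3 nuclei had a UMI of *L3mbtl4* and 3 and 4 had one of *Gm15261*. For *Chst9* there were 5 and 5 such nuclei, for *Kcnc2* 15 and 9 and for *Hs3st4* 10 and 9. The calls held in some settings and not in others. DESeq2 called all 5. Leaving out any 1 of the 4 samples leaves a single mouse in 1 genotype, so a repeated call in those fits carries little weight. After each nucleus was thinned to 1500 UMIs, which leaves fewer UMIs, 0 genes were called in edgeR, with 136 higher at an unadjusted p below 0.05, and the FDR of the 5 genes in the Benjamini-Hochberg adjusted edgeR test lay between 0.366 and 0.715. The log2 difference of *Hs3st4* was 0.89 there. The lowest FDRs of the 5 genes over the alternatives are not given, since fits with a single mouse in 1 genotype are among them. Without the nuclei marked by Scrublet, *L3mbtl4* alone was called.

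Just outside the threshold were *Reln*, *Fign* and *Trps1*. *Reln*, which encodes the extracellular matrix protein reelin of layer organisation and synapses, was at 198 and 242 CPM in mutants and 44.8 and 5.49 CPM in controls (log2 difference 3.01, SE 0.474). In inhibitory neurons 18 *Reln* was at 2111 to 3333 CPM, in inhibitory neurons 12 at 664 to 753 CPM and in inhibitory neurons 5 at 276 to 360 CPM. *Fign*, a microtubule-severing ATPase, was at 37.6 and 46.8 CPM in mutants and 7.46 and 1.83 CPM in controls (log2 difference 3.06, SE 0.478). *Trps1*, which encodes a GATA-type zinc finger repressor of transcription (chromosome 15, 50654752 to 50890463, minus strand), was at 495 and 534 CPM in mutants and 122 and 29.3 CPM in controls (log2 difference 2.68, SE 0.431). Their FDRs were 0.0704, 0.0704 and 0.0731 in the Benjamini-Hochberg adjusted edgeR test. For each of the 3 genes the mutants lay close together, while the controls differed from one another by 4 times or more. In control replicates 1 and 2, 7 and 3 nuclei had a UMI of *Reln* and 5 and 1 had one of *Fign*.

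Neither the label genes nor *Cntnap5a*, a neurexin-like adhesion protein that the study names for a subset of excitatory neurons, passed the test. The log2 differences were 0.64 for *Slc26a4*, 0.80 for *Cpa6*, -0.36 for *Wfs1* and -0.01 for *Dcc*. *Cntnap5a* was at 950.03 and 726 CPM in mutants and 599.8 and 566 CPM in controls, with a log2 difference of 0.48 (FDR = 0.586 in the Benjamini-Hochberg adjusted edgeR test). The study called only *Cntnap5a* and *Trps1*, both higher in mutants, in a subset of excitatory neurons. It used a regression on levels per nucleus, a measure and a unit unlike the sums per mouse tested here.

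No gene was called lower. The 5 genes with the smallest p in that direction were *Hsph1*, *Stac2*, *Zbtb20*, *Wls* and *Actg1*, at FDRs of 0.131 to 0.197 in the Benjamini-Hochberg adjusted edgeR test. *Hsph1*, a chaperone of the heat shock response, was at 21.8 and 19.2 CPM in mutants and 50.7 and 82.4 CPM in controls (log2 difference -1.73, SE 0.301). *Stac2*, an adaptor of calcium channels, was at 11.5 and 15.8 CPM against 59.7 and 36.6 CPM (log2 difference -1.83, SE 0.336). The groups did not overlap for either gene. *Zbtb20*, a zinc finger transcription factor of hippocampal neurons, and *Actg1*, a cytoplasmic actin, had log2 differences of -1.16 and -1.17.

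*Wls*, the gene made null in the mutants, was low in these nuclei. It had 7 and 12 UMIs in mutant and 12 and 12 UMIs in control replicates, which correspond to 4.25 and 3.45 CPM against 17.9 and 22.0 CPM. The mutants were below the controls without overlap, but the difference of -2.42 (SE 0.487) did not pass (FDR = 0.197 in the Benjamini-Hochberg adjusted edgeR test, and 0.0032 to 0.669 over the alternatives).

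Summed markers of other cell types differed with genotype at low levels. The summed level of 5 DGC markers was 2.37 and 11.4 CPM in mutants and 48.6 and 30.5 CPM in excitatory neurons 10 of controls, against 384 to 447 CPM in DGCs, and none of the 5 was at 0 in all samples. *Prox1*, the transcription factor that defines DGCs, was at 0.607 and 3.73 CPM in mutants and 23.9 and 11.0 CPM in controls. The summed level of 5 astrocyte markers was 275 and 346 CPM in mutants and 379 and 383 CPM in controls, against 10765 to 13353 CPM in astrocytes. That of the 7 inhibitory markers went the other way, at 142 and 193 CPM in mutants and 98.6 and 97.3 CPM in controls. Of these 7, 3 had both mutants above both controls. *Erbb4* was the most abundant, at 73.5 and 93.2 CPM in mutants and 36.4 and 34.3 CPM in controls. Its summed level was also higher in mutants in CA1 (from 44.5 to 80.7 CPM), DGCs (30.3 to 63.0 CPM) and excitatory neurons 13 (23.7 to 65.7 CPM). *Gad1* and *Gad2* overlapped between genotypes. Of the 5 called genes, *Chst9* was highest in DGCs, at 413 and 398 CPM in mutants and 227 and 259 CPM in controls. The part of RNA from other cells in the genotype differences was not tested.

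Apart from *Kcnc2*, no member of the gene lists examined passed the threshold, and the lists are given by counts and medians beside all 10365 genes, whose median log2 difference was -0.0021 and of which 49.8% were positive. Of 24 markers of the subiculum and adjoining cortex 16 were tested, 13 were higher in mutants and the median was 0.47. Its 2 most abundant members, *Tshz2* and *Cux2*, both transcription factors, had log2 differences of 0.33 and 0.14, while *Reln* (3.01), *Col5a2* (2.41), *Lef1* (1.36), *Cbln4* (1.34) and *Etv1* (1.16) had an unadjusted p below 0.05 and an FC above 2. *Lef1* encodes a transcription factor of the Wnt pathway, and it was at 60.1 and 59.4 CPM in mutants and 38.8 and 3.66 CPM in controls, so that its difference rested on control replicate 2.

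Of the 23 glutamate receptor genes tested, 20 (87.0%) were higher in mutants, with a median of 0.26. The most abundant, the metabotropic receptors *Grm7* and *Grm5*, had log2 differences of 0.22 and 0.31, and the kainate receptor *Grik1* had 2.31 (19.4 and 45.1 CPM in mutants, 10.4 and 1.83 CPM in controls). The 13 GABA receptor genes tested had a median of -0.06, with 6 higher and 7 lower.

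Wnt genes were divided. Of 30 tested genes of Wnt secretion and signalling, 14 were higher and 16 lower, with a median of -0.02. *Apc* and *Gsk3b*, parts of the complex that degrades beta-catenin, had log2 differences of 0.11 and -0.05. *Rspo2*, a secreted enhancer of Wnt signalling, was at 183 and 161 CPM in mutants and 68.6 and 82.4 CPM in controls, a log2 difference of 1.15 that did not pass (FDR = 0.205 in the Benjamini-Hochberg adjusted edgeR test). Of 21 genes of the netrin pathway 12 were higher and 9 lower, with a median of 0.11, and *Unc5d*, a repulsive netrin receptor, was at 989 and 1278 CPM in mutants and 495 and 416 CPM in controls (log2 difference 1.27, SE 0.231, FDR = 0.156 in the Benjamini-Hochberg adjusted edgeR test). The 13 contactins and contactin-associated genes had a median of 0.16, with 8 higher and 5 lower. *Cntnap3* had the highest log2 difference, 1.25 (140 and 85.0 CPM in mutants, 59.7 and 29.3 CPM in controls), and the most abundant members, the adhesion proteins *Cntn5* and *Cntnap2*, had 1.17 and 0.06. In the 35 axon guidance genes the median was 0.01, and *Epha6* and *Slit3* had log2 differences of -0.10 and 0.14.

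Stress, activity and peptide genes lay mostly below 0. Of 15 genes of endoplasmic reticulum stress 13 were lower in mutants, with a median of -0.40. *Pdia3*, a disulfide isomerase of that compartment, was at 39.4 and 37.6 CPM in mutants and 74.6 and 80.6 CPM in controls (log2 difference -1.05), and the most abundant members, the chaperone *Canx* and the degradation factor *Sel1l*, had -0.40 and -0.22. Of 17 immediate early genes 14 were lower, with a median of -0.20, among them *Homer1* (-0.70) and *Arc* (-1.07), which act at synapses. Of 6 neuropeptide genes 5 were lower, with a median of -0.83, and *Cck*, which encodes cholecystokinin, was at 145 and 117 CPM in mutants and 236 and 286 CPM in controls (-1.03). None of these passed the threshold. *Nrgn*, a postsynaptic calmodulin-binding protein with a short mRNA, had the same direction, at 53.4 and 62.4 CPM in mutants and 98.6 and 120.2 CPM in controls. Its summed level was also lower in mutants in other types, from 321 to 200.5 CPM in CA1, 399 to 138 CPM in DGCs, 109.9 to 62.5 CPM in excitatory neurons 13 and 80.1 to 41.8 CPM in inhibitory neurons 5. The part of RNA quality in the lower levels was not tested.

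Whether the genotype difference in excitatory neurons 10 differed from that in other excitatory types was tested as an interaction with the mouse as a block, against CA1 pyramidal cells and against excitatory neurons 8 and 13. Against CA1, 13 of 15851 genes had a higher difference in excitatory neurons 10 (0.082%) and 7 a lower one (0.0442%), beside 274 (1.73%) and 183 (1.15%) at an unadjusted p below 0.05. Against excitatory neurons 8 the counts were 6 (0.0527%) and 0 (0%) of 11395 genes, with 208 lower (1.83%) at an unadjusted p below 0.05 and 0 by DESeq2. Against excitatory neurons 13 they were 4 (0.0373%) and 1 (0.00933%) of 10713. Within CA1 and within excitatory neurons 8 and 13 taken alone, 0 genes were called by edgeR in either direction, while at an unadjusted p below 0.05 and an FC above 2 there were 229 (1.36%), 183 (1.66%) and 131 (1.34%) genes higher and 70 (0.417%), 130 (1.18%) and 84 (0.86%) lower in these 3 types, and DESeq2 was not run within them. Without the mouse block the interaction counts fell to 0 in all 3 comparisons.

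*Hs3st4* and *Trps1* passed all 3 interaction tests. *Hs3st4* was at 306 to 352 CPM in CA1, 2952 to 3238 CPM in excitatory neurons 8 and 3910 to 4051 CPM in excitatory neurons 13, all without a called difference, and so lay far above excitatory neurons 10 in every sample. The log2 interaction values were 1.82, 1.73 and 1.98. Both mutants were also above both controls for *Hs3st4* in DGCs (254 and 235 CPM against 149.7 and 165 CPM), inhibitory neurons 5 (75.9 and 99.9 CPM against 37.9 and 50.9 CPM) and astrocytes (34.4 and 41.4 CPM against 14.3 and 15.04 CPM), and the interaction with these types was not tested. *Trps1* was at 44.4 to 60.8 CPM in CA1, 46.9 to 68.7 CPM in excitatory neurons 8 and 35.9 to 58.0 CPM in excitatory neurons 13, levels between those of excitatory neurons 10 in the 2 controls, and its interaction values were 2.67, 2.64 and 2.65. For *Trps1* the interaction passed although the difference within excitatory neurons 10 alone did not.

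*Kcnc2* and *Chst9* passed against CA1 (2.19 and 2.36) and excitatory neurons 8 (2.12 and 2.62), and *L3mbtl4* against CA1 (2.74). Both mutants were also above both controls for *Chst9* in DGCs and astrocytes (80.2 and 60.1 CPM against 32.2 and 27.7 CPM). The same held in oligodendrocyte precursors (289 and 220 CPM against 187 and 140 CPM), CA3, mossy cells and inhibitory neurons 12. In inhibitory neurons 14 both mutants were below both controls. The interaction with these types was not tested. *Gm15261* passed against excitatory neurons 8 (3.25) and excitatory neurons 13 (3.02) but not against CA1, where it had a log2 difference of 1.84 of its own, from 2.19 and 3.54 CPM in controls to 10.2 and 10.8 CPM in mutants. *Reln* (2.32) and *Kcnk2*, a leak potassium channel (2.203), completed the 5 largest against CA1, and *Pdzrn4* (1.504) those against excitatory neurons 13. The remaining genes higher against CA1 were *Fam19a1*, *Htr1f*, *Nkain3*, *Ptpro*, *Samd5* and *Synpr*, and the remaining one against excitatory neurons 8 was *Tmtc2*.

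In the other direction the interaction values against CA1 were -1.99 for *Dcn*, -1.73 for *Acvr1c*, -1.65 for the non-coding RNA *Rmst*, -1.49 for the protocadherin gene *Pcdh11x* and -1.41 for *Nnat*. *Acvr1c* was at 35.2 and 31.6 CPM in mutants and 61.2 and 71.4 CPM in controls in excitatory neurons 10, and its difference was 0.72 in CA1. *Dcn*, which encodes the matrix proteoglycan decorin, was at 77.0 and 72.9 CPM in mutants and 47.7 and 255 CPM in controls, so that the mutants lay between the controls. The one gene lower against excitatory neurons 13 was *Cntnap5b*, with an interaction value of -1.18.

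**Figure D3:**
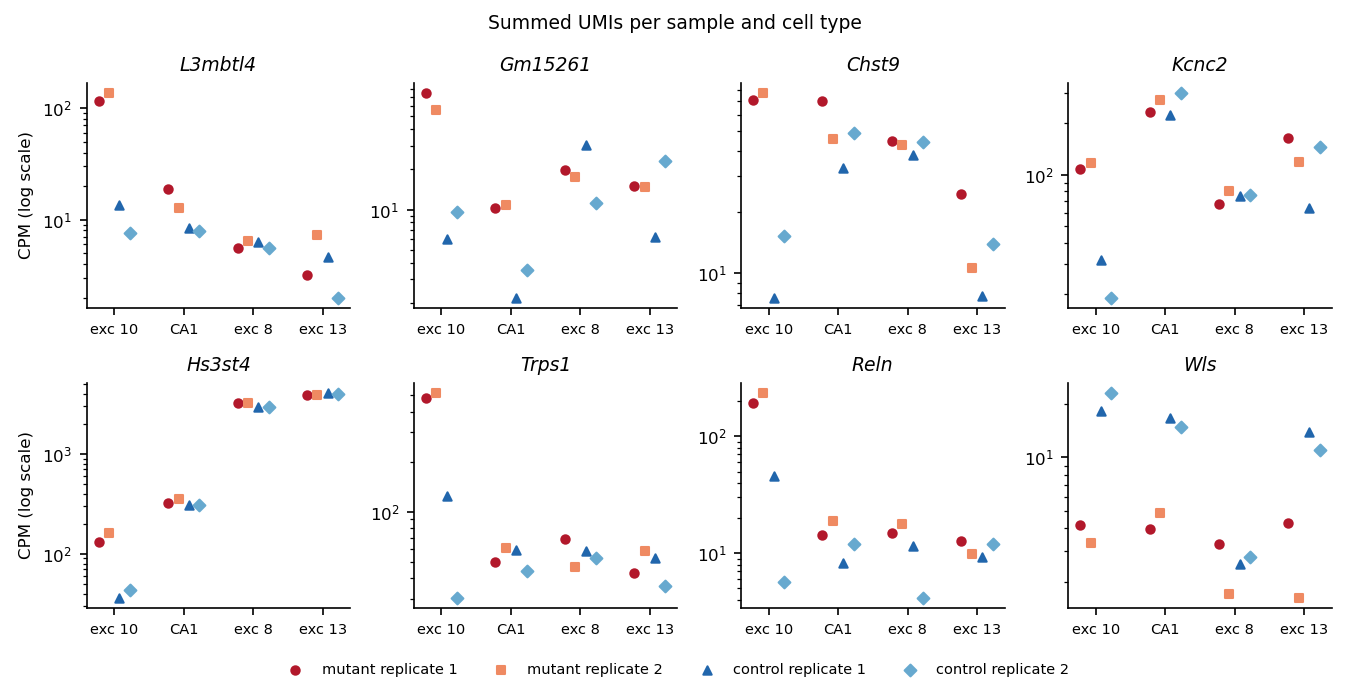
CPM of summed UMIs (log axis) per sample in excitatory neurons 10 (exc 10), CA1 and excitatory neurons 8 and 13 (exc 8, exc 13), 1 panel per gene and 1 symbol per sample. In excitatory neurons 10 the *Hs3st4* values are 133 and 162 in mutants and 36.4 and 43.9 in controls, while in the other types the 4 samples lie close together.

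*Trps1* was not spread evenly over the nuclei. In this type 164 of 286 and 162 of 368 mutant nuclei had no *Trps1* UMI, whereas single nuclei reached 48 and 57 UMIs. At least 10 UMIs were found in 34 nuclei of mutant replicate 1 (11.9%, exact 95% binomial interval 8.38 to 16.2), 74 of mutant replicate 2 (20.1%, 16.1 to 24.6), 2 of control replicate 1 (2.70%, 0.329 to 9.42) and 0 of control replicate 2 (0%, 0 to 8.81). By the limit of 3 counts, 0 of 40 allows a share of up to 7.50%. The limit of 10 UMIs was chosen after the values were seen and defines a range of the values, not a cell type, and 12 and 20 mutant nuclei and no control nucleus lay between 8 and 12 UMIs.

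**Figure D4:**
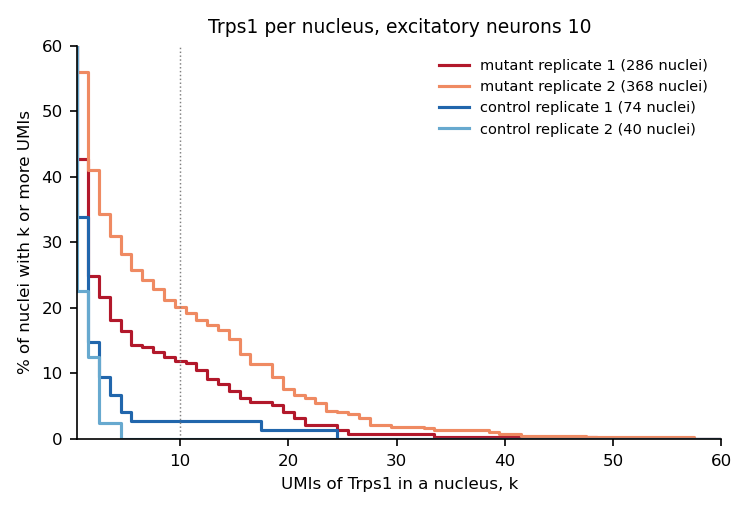
Percentage of nuclei of excitatory neurons 10 (vertical axis) with at least the number of *Trps1* UMIs on the horizontal axis, 1 line per sample, with a dotted line at 10 UMIs. The mutant lines stand at 11.9% and 20.1% there, and the control lines at 2.70% and 0%.

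These nuclei held 75.1% and 79.5% of the *Trps1* UMIs of mutant replicates 1 and 2. They were also deeper, with median UMIs of 7161 and 12055.5 against 4909.5 and 8594.5 in mutant nuclei without *Trps1*. At 1500 UMIs per nucleus, 14.0% and 15.8% of mutant and 4.05% and 0% of control nuclei had at least 2 *Trps1* UMIs. Scrublet marked 4 of the 74 in mutant replicate 2. Since depth, doublets and the threshold bear on this range, it is given without a test.

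Among mutant nuclei sorted by *Trps1*, other genes of the genotype comparison fell into different patterns. In mutant replicate 1, *Fign* was at 2.27, 16.6 and 193 CPM in nuclei with 0, 1 to 9 and at least 10 *Trps1* UMIs, and in mutant replicate 2 it was at 2.81, 20.1 and 150 CPM. *Chst9* was at 35.2, 73.9 and 185 CPM and at 33.7, 91.0 and 125 CPM. *Cntnap5a* was at 714, 787 and 1932 CPM and at 603, 495 and 1159 CPM. These 3 genes were thus highest where *Trps1* was highest, in both mutants.

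*L3mbtl4* and *Hs3st4* went the other way. *L3mbtl4* was at 87.4, 216 and 3.78 CPM in mutant replicate 1 and at 103, 225 and 58.6 CPM in mutant replicate 2. *Hs3st4* was at 133, 185 and 26.5 CPM and at 174, 201 and 86.8 CPM. Both were therefore lowest in the nuclei with at least 10 *Trps1* UMIs. In nuclei without *Trps1*, *L3mbtl4* was at 87.4 and 103 CPM in mutants and 7.11 and 10.2 CPM in controls. *Hs3st4* was there at 133 and 174 CPM against 35.6 and 15.3 CPM. These control values rest on 3 and 4 UMIs of *L3mbtl4* and on 15 and 6 UMIs of *Hs3st4*. The part of the *Trps1* range in the genotype differences was not tested.

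*Cpa6* and *Dcc*, both genes of the label, were also low where *Trps1* was high. *Cpa6* was at 154, 298 and 37.8 CPM in mutant replicate 1 and at 124, 143 and 27.0 CPM in mutant replicate 2. *Dcc* was at 3629, 3790 and 1463 CPM and at 3059, 3109 and 1549 CPM. *Wfs1* was instead highest in the last class, at 81.8, 33.3 and 166 CPM and at 125, 64.8 and 134 CPM, and *Slc26a4* stood at 176, 168 and 139.9 CPM and at 200.2, 197 and 117 CPM, so that the label genes did not move together. *Kcnc2* and *Reln* were lowest in nuclei without *Trps1*, at 57.9 and 54.1 CPM and at 102 and 94.8 CPM, and *Reln* was highest in nuclei with 1 to 9 UMIs, at 362 and 377 CPM.

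Other types carried more *Trps1* than excitatory neurons 10. It was at 1815 to 2711 CPM in mossy cells, 766 to 1433 CPM in CA3 and 928 to 1170.3 CPM in astrocytes. In inhibitory neurons 15 it was at 1622 and 1312 CPM in mutants and 1367 and 1894 CPM in controls, with *Cntnap5a* at 3995 and 3501 CPM and 2976 and 2057 CPM. *Chst9* was at 122 and 134 CPM in its mutant nuclei and 7.31 and 0 CPM in its control nuclei, and *Gm15261* at 65.2 and 78.1 CPM and 7.31 and 0 CPM. The control values of inhibitory neurons 15 come from 15 and 1 nuclei, too few for a direction to be read. This type took 2.70% and 0.975% of mutant nuclei and 0.232% and 0.0139% of control nuclei, the last of these being 1 nucleus. Whether nuclei of excitatory neurons 10 with much *Trps1* and those of inhibitory neurons 15 were divided cleanly by the annotation was not tested.

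**Figure D5:**
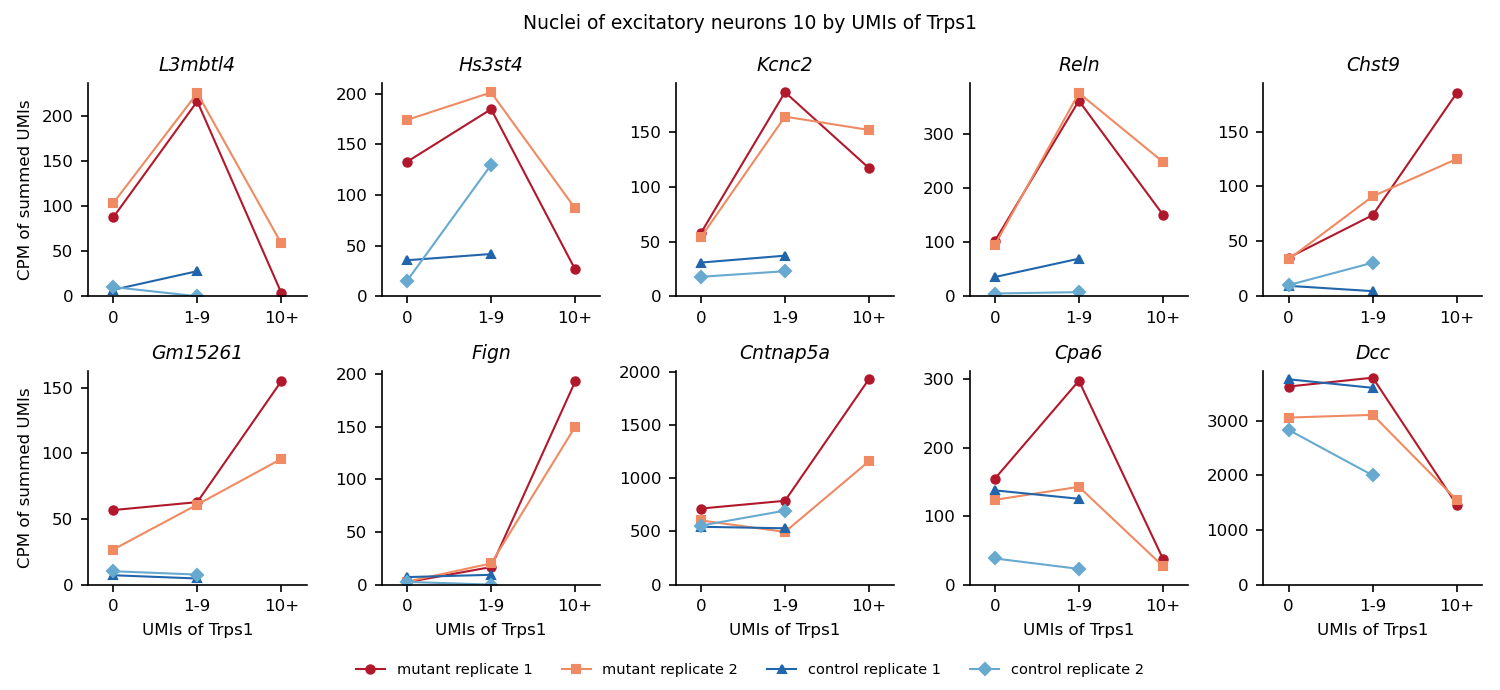
CPM of summed UMIs (vertical axes from 0) in nuclei of excitatory neurons 10 with 0, 1 to 9 or at least 10 *Trps1* UMIs (horizontal axes), 1 line per sample. The 2 control nuclei with at least 10 UMIs are not drawn, and in both mutants *Fign* reaches its highest value, 193 and 150 CPM, and *Hs3st4* its lowest, 26.5 and 86.8 CPM, in the last class.

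In bulk RNAseq of whole hippocampi, none of the 30 genes most enriched in excitatory neurons 10 was called between genotypes. These 30 genes with the highest ratio in control nuclei were looked up in the expected counts, where 26 were listed and 23 tested. Of these, 0 were called by edgeR, 0 had an unadjusted p below 0.05 with an FC above 2, and DESeq2 called 0. Without mutant replicate 1 of the bulk libraries, 2 of the 23 were called. In a list of 60 genes, 1 of the 53 tested was called, *Gsg1l*, at 11.5 and 10.1 CPM in mutants and 28.0 and 24.0 CPM in controls (log2 difference -1.27, FDR = 0.0275 in the Benjamini-Hochberg adjusted edgeR test). Over all 20687 genes tested, 0.029% were called higher and 0.367% lower. The 23 genes had a median log2 difference of -0.02, with 10 higher and 13 lower, beside a median of 0.01 over all genes.

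*Cpa6* was at 15.9 and 12.9 CPM in mutants and 13.5 and 15.8 CPM in controls, and *Slc26a4* at 14.2 and 13.7 CPM against 16.04 and 16.1 CPM. *Wfs1* was at 155 and 222 CPM against 123 and 154 CPM, and *Dcc* at 10.0 and 4.81 CPM against 9.56 and 11.3 CPM. The values of *Cpa6*, *Wfs1* and *Dcc* overlapped or nearly touched between genotypes, and those of *Slc26a4* were separated by a small step. In tissue that mixes all cells, fewer cells of a type and less RNA per cell cannot be told apart, and these genes are also transcribed in other hippocampal cells.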

How the data were processed

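Nuclei of 2 mutant and 2 control mice, and whole hippocampi of 2 mice per genotype, were placed in genotypes by their labels, each replicate being a separate mouse. For snRNAseq the authors used a pre-mRNA index of mm10 (Cell Ranger 3.1.0 in the processing notes) and deposited UMI counts per gene and nucleus with a cell type for every nucleus. For bulk RNAseq the authors deposited an expected count per gene from RSEM 1.3.0 with Bowtie2 2.2.9, in which reads that match several genes are shared out. TPM values and the authors' scaled matrix were not used here, and 0 columns of other series were present. Clustering and cell type names are the authors'.

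UMIs of excitatory neurons 10 were summed per mouse and compared with edgeR 4.0.16 (R 4.3.3) by its quasi-likelihood test, after filterByExpr and TMM scaling, with Benjamini-Hochberg adjustment over all genes tested. A call required FDR below 0.05 and FC above 2. Expected counts were rounded and tested likewise. Interactions had the mouse as a block, and numbers of nuclei were tested with all nuclei of the mouse as library size. A standard error is the absolute log2 difference divided by the root of its F statistic. Alternatives were DESeq2 1.42.0, RLE scaling, no filter, FC above 1.5, thinning to 1500 UMIs per nucleus, 40 nuclei per sample, Scrublet (scanpy 1.11.5), the replicate number as a block, other denominators or list sizes, and each sample left out, where a lone sample is assumed to vary like the other genotype. The scipy (1.17.1), pandas (2.3.3) and numpy (2.4.6) libraries served all else. Gene positions are from gencode vM21. On simulated data the test recovered 81% of 200 genes changed 4-fold in excitatory neurons 10 (10365 genes, 8 false calls) and 78.5% in bulk RNAseq (20687 genes, 21 false calls).

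Named genes are the label genes, *Wls*, *Trps1*, *Cntnap5a*, the 15 genes most enriched in controls among those with at least 50 CPM, the called genes (or the 5 with the smallest p), the 5 largest interactions in each direction, and members of gene lists that passed or else the 2 most abundant. Further list members, *Reln*, *Fign*, *Arhgap6*, *Gsg1l*, *Xist* and the *Trps1* classes were chosen after their values were seen. The members of the type and all lists were chosen with earlier results of these data known. Libraries held 5304 to 10460 nuclei in snRNAseq and 56002381 to 79576196 expected counts in bulk RNAseq. Intervals are exact 95% binomial intervals, and a count of 0 allows up to 3 counts. Both cover counting error only.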

Additional observations from a re-analysis of the deposited data

Results flagged for a closer look

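Of the results above, those in which the genotype difference (mutant minus control) itself differed between excitatory neurons 10 and another type are given here with Benjamini-Hochberg adjusted FDRs from the edgeR test of the interaction. Against CA1, *L3mbtl4* (log2 interaction 2.74, FDR = 0.0017), *Trps1* (2.67, FDR = 1.0e-05), *Chst9* (2.36, FDR = 0.0040), *Reln* (2.32, FDR = 0.0058) and *Kcnk2* (2.203, FDR = 2.3e-04) had a higher difference in excitatory neurons 10. *Dcn* (-1.99, FDR = 1.2e-04), *Acvr1c* (-1.73, FDR = 0.0021), *Rmst* (-1.65, FDR = 3.7e-04), *Pcdh11x* (-1.49, FDR = 5.0e-04) and *Nnat* (-1.41, FDR = 2.3e-04) had a lower one.

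Against excitatory neurons 8 the difference was higher for *Gm15261* (3.25, FDR = 0.0412), *Trps1* (2.64, FDR = 0.0185), *Chst9* (2.62, FDR = 0.0185), *Kcnc2* (2.12, FDR = 0.0165) and *Hs3st4* (1.73, FDR = 0.0136) in the Benjamini-Hochberg adjusted edgeR test. Against excitatory neurons 13 it was higher for *Gm15261* (3.02, FDR = 0.0404), *Trps1* (2.65, FDR = 4.6e-04), *Hs3st4* (1.98, FDR = 1.2e-04) and *Pdzrn4* (1.504, FDR = 0.0034) and lower for *Cntnap5b* (-1.18, FDR = 0.0326) in the same edgeR test with Benjamini-Hochberg adjustment. The 3 comparisons share the nuclei of excitatory neurons 10, and the groups of 2 mice were too small for a test of outlying samples.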

How the results depend on the processing

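The count of 5 genes higher in mutants was 11 with DESeq2, 89 with no filter, 0 after thinning to 1500 UMIs and 1 without nuclei marked by Scrublet. It was 25 to 124 when a sample was left out, over 1.5 times the main count for each of the 4. The count of 0 genes lower was 43 with no filter and 14 to 63 when a sample was left out. The interaction counts of 20, 6 and 5 genes against CA1 and excitatory neurons 8 and 13 were 60, 48 and 31 with no filter and 0, 0 and 0 with no mouse block. DESeq2 gave 2 against excitatory neurons 8 and 2 against excitatory neurons 13, and leaving out a sample gave 21 to 55, 7 to 105 and 14 to 89. Without control replicate 1, 14 of the 20 genes against CA1 were called.

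The replicate numbers were shared between genotypes but mark no common litter or day in the labels. Deviations of same-numbered samples from their group means correlated at 0.213 in excitatory neurons 10 and 0.064 in bulk RNAseq. With the replicate number as a block, 1 gene was called higher (*L3mbtl4*), the log2 difference in nuclei was 2.44 (adjusted p = 0.0247 in the Benjamini-Hochberg adjusted edgeR test), that of *Dcc* was 0.0014, and 0 enriched genes were called in bulk RNAseq. The log2 difference in nuclei passed the threshold also in DESeq2 (2.39) and kept its direction in all other settings, with 1.96 to 2.998 when a sample was left out. *Wls* passed with no filter (-2.38) and ranged from -2.58 to -2.20 when a sample was left out.

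*Dcc*, with a log2 difference near 0, turned positive with no filter (0.027), after thinning (0.17) and with equal nuclei (0.0080), and ranged from -0.24 to 0.26 when a sample was left out. *Dcn* ranged from -1.81 to 0.61, and was positive without control replicate 2. Of the enriched genes in bulk RNAseq, 1 was called with a list of 60 genes and 0 to 2 when a sample was left out. Of the other values, for single genes, 340 kept direction and side of the threshold, 44 passed it only under the alternative and 55 no longer passed. The causes were not tested. The few control nuclei, 74 and 40, limit the precision of every comparison.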

Other observations

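For microglia, endothelial and inhibitory markers, the nuclei of excitatory neurons 10 held low levels with both mutants above both controls. Among single genes tested, both mutants were above both controls for 22.6%. For the DGC, CA2, astrocyte and excitatory neuron markers both mutants were below both controls, and none of these sums was tested. The summed level of 4 microglia markers was 52.8 and 71.0 CPM in mutants and 34.9 and 47.7 CPM in controls, against 4041 to 4564 CPM in microglia. That of 3 endothelial markers was 11.9 and 10.8 CPM against 6.07 and 3.82 CPM, and that of 7 inhibitory markers was 142 and 193 CPM against 98.6 and 97.3 CPM. The 5 choroid plexus markers summed to 1.78 and 49.9 CPM in mutants and 21.2 and 7.63 CPM in controls, so that these groups overlapped. The CA1 markers stood at 2596 and 2123 CPM in mutants and 1824 and 1517 CPM in controls, against 5939 to 6954 CPM in CA1. Both mutants were thus above both controls for the CA1 sum too, and also for that of the subiculum and adjoining cortex (2057 and 2551 CPM against 1966 and 1576 CPM). The 4 CA3 markers were at 610.3 and 716 CPM in mutants and 452 and 679 CPM in controls, against 2267 to 2789 CPM in CA3.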
